A study of Mus musculus with 4 samples.

Results

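The complement system was followed in *rd7* and wild-type retinas through 9 genes: the C1q subunits *C1qa*, *C1qb* and *C1qc*, the central components *C3* and *C4b*, the protease *Cfb*, the soluble inhibitors *Cfi* and *Serping1*, and the membrane inhibitor *Cd59a*. They were taken by symbol from the 22095 loci of the deposited table, and all 9 were listed. The *rd7* mouse is mutant for *Nr2e3*, whose product is a nuclear receptor that directs rod precursors, and was compared with wild-type mice, with C57BL/6J given as the strain of both. All mice were 3 weeks old, and each of the 2 libraries per genotype was made from 8 retinas pooled from 2 females and 2 males, so that p-values measure the spread between pools. Every value is an FPKM, which is a count of sequenced fragments divided by transcript length and by the number of mapped fragments. A retina library mixes all cells of the tissue, so that more cells of a type and more RNA per cell cannot be told apart.

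Complement is a cascade of plasma and tissue proteins that tags cells and debris for removal. In the classical pathway C1q recognizes a surface and the attached proteases cleave C4 and C2, and in the alternative pathway factor B, encoded by *Cfb*, joins cleaved C3. Both routes split C3, and the cascade is held back by factor I (*Cfi*), which degrades C3b and C4b, by the C1 inhibitor (*Serping1*), and by CD59, which blocks the membrane attack complex. In the central nervous system C1q is made largely by microglia and tags synapses for pruning, while C4, C3 and the inhibitors are also made by glia and other cells.

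The 2 *rd7* libraries are described separately, because they differed in these genes. Across the 12655 genes tested, 82 differed by more than 2-fold between the *rd7* libraries and 50 between the wild-type libraries. On the log2(FPKM + 0.1) scale, 55 genes (0.435%) were more than 2-fold higher in *rd7* replicate 2 than in replicate 1, and *C4b* and *Serping1* were among them. Transcript of the mutated gene *Nr2e3* separated the genotypes, which says nothing of its protein. *Nr2e3* was at 2493 and 1589 FPKM in *rd7* replicates 1 and 2 and at 385 and 394 in wild-type. Its log2 fold change was 2.35 (standard error 0.20, limma adjusted p = 0.0011). The photoreceptor genes *Sag*, *Pde6b* and *Prph2* were at 543 FPKM or more in every library.

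*C4b* encodes complement C4, the protein whose cleavage gives the C4b fragment of the classical pathway, and of the 9 genes it differed most between the *rd7* libraries. It had an FPKM of 0.953 in *rd7* replicate 1, 4.62 in *rd7* replicate 2 and 0.811 in each wild-type library. Both *rd7* values lay above both wild-type values, but replicate 1 was 1.17 times and replicate 2 was 5.70 times the wild-type mean. Replicate 2 was 4.85 times replicate 1, and only 11 of the genes tested had a larger log2 difference between the *rd7* libraries. With both libraries, the log2 fold change was 1.29 (standard error 0.65, limma, two-sided, Benjamini-Hochberg adjusted p = 0.155), which did not pass an FDR of 5%. The gene entered the test, which required a mean of 1 FPKM over the 4 libraries, only through replicate 2.

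*C4b* lies on chromosome 17 of mm9 from 34865326 to 34880842 on the minus strand, 65.2 kb from its paralog *C4a* (34946037 to 34960399, same strand). Of the 50-base windows of the longest *C4b* transcript, 1875 of 5330 (35.2%) occur exactly in *C4a* as well, so a read of that length from there cannot be assigned to either gene. Over 41 coding exons compared without gaps, so that an insertion or deletion counts as many differences, 254 of 5214 bases differed (95.1% identity). The stretch below comes from a *C4b* coding exon (exon 21, chr17:34872360-34872409) and its place in *C4a* (chr17:34953016-34953065), and shows where reads of the 2 genes do differ. Among the exons whose best match has the same ends as an annotated *C4a* exon, it is the 50-base window with the most differences. Capitals mark the 11 bases that differ, and both are read from mm9 on the minus strand:
C4b: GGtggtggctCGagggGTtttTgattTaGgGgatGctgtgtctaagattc
C4a: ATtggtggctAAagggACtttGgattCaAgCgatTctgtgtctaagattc
*C4a* was named as the paralog of a member, and it was below the filter. It was at 0.431 and 0.652 FPKM in *rd7* and at 0.462 and 0.306 in wild-type. *C4b* made up 68.9% and 87.6% of the FPKM of both genes together in *rd7* replicates 1 and 2, against 63.7% and 72.6% in wild-type. The *C4b* value is therefore uncertain by the reads that fit both genes, and how the authors' software divided them was not tested.

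*Serping1* encodes the C1 inhibitor, which inactivates the proteases attached to C1q. Its FPKM was 1.81 in *rd7* replicate 1, 4.62 in replicate 2, and 2.01 and 1.87 in the wild-type libraries. Replicate 1 lay below both wild-type libraries and replicate 2 was 2.38 times their mean, so the genotypes overlapped. The log2 fold change was 0.56 (standard error 0.40, adjusted p = 0.293 from limma). Between the *rd7* libraries the log2 difference was 1.30, and 34 of the genes tested had a larger one. The gene lies on chromosome 2 from 84605517 to 84615586.

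*C3* encodes the protein on which all pathways converge. It was low in all 4 libraries, with 0.261 and 0.513 FPKM in *rd7* replicates 1 and 2 and 0.326 and 0.332 in wild-type. Replicate 1 was the lowest and replicate 2 the highest of the 4, on an estimated 47.5 and 91.8 reads. The mean log2 difference of 0.13 was within the spread of the *rd7* libraries, which were 0.76 apart. *C3* lies on chromosome 17 from 57343396 to 57367559, and its mean was under the filter.

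**Figure D1:**
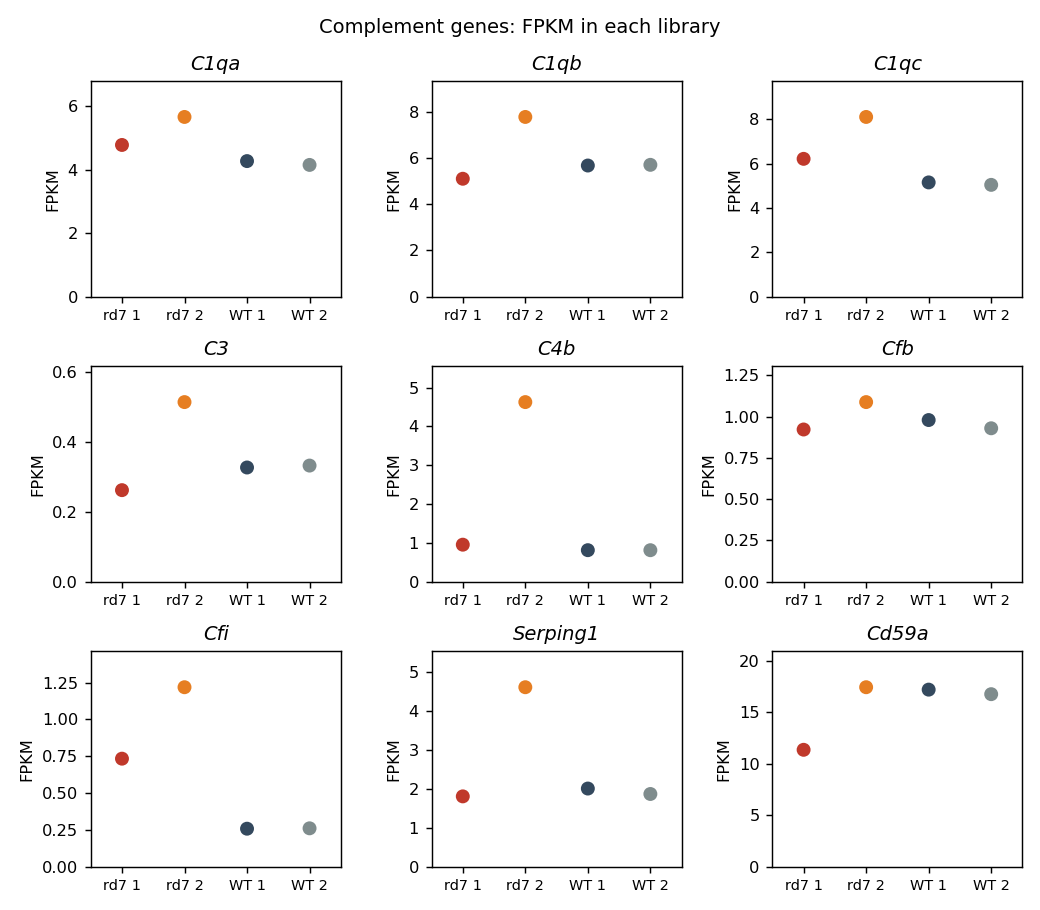
FPKM (vertical axis, from 0, its own scale in each panel) of the 9 complement genes in the 4 libraries (horizontal axis: *rd7* replicates 1 and 2, then wild-type, WT, replicates 1 and 2), 1 point per library. For *C4b* and *Serping1* replicate 2 of *rd7* stands above the other 3 points, at 4.62 FPKM for each gene, while for *Cd59a* replicate 1 stands below them at 11.4.

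Messenger RNA of C1q was present at a few FPKM in every library. The subunits are encoded by a cluster of 18.7 kb on chromosome 4 of mm9, with *C1qb* from 136436061 to 136442092, *C1qc* from 136445717 to 136448829 and *C1qa* from 136451831 to 136454759. The 3 chains assemble into 1 protein. No 50-base window of the *C1qa* transcript occurred in *C1qb* or *C1qc*, nor one of *C1qb* in *C1qc*.

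*C1qc* was higher in *rd7*. Its FPKM was 6.22 and 8.11 in *rd7* replicates 1 and 2 and 5.15 and 5.04 in wild-type, and the *rd7* libraries lay above both wild-type libraries. The log2 fold change was 0.47 (standard error 0.13, adjusted p = 0.0294 from limma), and the median over all genes tested was 0.15, which median-ratio scaling moved to -0.0049. After median-ratio scaling of the libraries the value was 0.32 and was no longer called (adjusted p = 0.108 from limma), and 0.30 with quantile normalization (adjusted p = 0.131 from limma). Nor was it called without a filter (adjusted p = 0.200 from limma) or without a variance trend, at the threshold itself. The log2 fold change was 0.49 without wild-type replicate 1 and 0.46 without wild-type replicate 2.

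*C1qa* was at 4.78 and 5.66 FPKM in *rd7* and at 4.27 and 4.15 in wild-type, again without overlap. Its log2 fold change of 0.30 (standard error 0.10) missed the threshold, with an adjusted p of 0.0539 from limma. *C1qb* overlapped between the genotypes, at 5.10 and 7.78 FPKM in *rd7* and 5.68 and 5.71 in wild-type (log2 fold change 0.14, standard error 0.19, adjusted p = 0.552 from limma). In replicate 1 it lay below, and in replicate 2 above, both wild-type values, and its fold change was -0.03 with quantile normalization and -0.01 with median-ratio scaling. The summed FPKM of the 3 subunits was 16.1 and 21.5 in *rd7* replicates 1 and 2 and 15.1 and 14.9 in wild-type.

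Promoters are shown for *C1qc*, the member that was called, for its neighbour *C1qb*, and for *C3*. RefSeq (build GRCm38.p6, whose coordinates differ from those of mm9) gave a promoter for 4 of the 9 genes, *C1qb*, *C1qc*, *C3* and *Cd59a*, and those of *C1qa*, *C4b*, *Cfb*, *Cfi* and *Serping1* were not used here. The 250 bases before the start of *C1qb* (chr4:136886201-136886450) and of *C1qc* (chr4:136892915-136893164), both on the minus strand, are given with the letters GAGGAA in capitals on either strand, the core bound by the myeloid factor PU.1:
C1qb: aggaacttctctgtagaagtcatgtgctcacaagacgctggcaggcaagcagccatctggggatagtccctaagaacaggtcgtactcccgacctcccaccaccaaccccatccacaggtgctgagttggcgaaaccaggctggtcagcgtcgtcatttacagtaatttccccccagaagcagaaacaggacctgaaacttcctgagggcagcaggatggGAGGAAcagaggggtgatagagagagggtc
C1qc: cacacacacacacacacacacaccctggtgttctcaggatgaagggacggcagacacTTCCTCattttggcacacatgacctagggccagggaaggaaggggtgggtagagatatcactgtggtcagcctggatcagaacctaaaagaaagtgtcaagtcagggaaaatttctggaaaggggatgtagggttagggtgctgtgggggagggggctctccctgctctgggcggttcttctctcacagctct
Each holds the letters 1 time, and 23.3% of the 32851 RefSeq promoters hold them in a window of this length. Neither holds TTCNNNGAA, read by STAT factors (7.02% of promoters), TTGCNNNA, of C/EBP factors (29.3%), or the interferon-stimulated response element, ISRE (2.98%), where N is any base and both strands were searched. The 250 bases before *C3* (chr17:57228137-57228386, minus strand) hold TTGCNNNA at 2 places, here in capitals, and none of the other 3 motifs:
C3: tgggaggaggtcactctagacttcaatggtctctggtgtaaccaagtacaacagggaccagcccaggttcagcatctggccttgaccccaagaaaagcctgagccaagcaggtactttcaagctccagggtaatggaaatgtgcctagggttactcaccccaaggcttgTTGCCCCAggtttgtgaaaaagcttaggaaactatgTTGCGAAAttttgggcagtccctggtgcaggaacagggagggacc
The motifs do not overlap in these windows. A match describes the letters and says nothing of binding in these retinas.

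*Cfi*, whose product degrades C3b and C4b, had the largest ratio to wild-type in *rd7* replicate 1 among the members. It was at 0.734 and 1.22 FPKM in *rd7* replicates 1 and 2 and at 0.259 and 0.261 in wild-type, which is 2.82 and 4.69 times the wild-type mean. Estimated from the worth of 1 read, 53.9 and 88.2 reads lay behind the *rd7* values and 19.0 and 19.3 behind those of wild-type. Its mean was under the filter of 1 FPKM. In the fit of all 21833 genes without a filter the log2 fold change was 1.54 (standard error 0.30, adjusted p = 0.0852 from limma). In that fit 10.3% of genes were called higher in *rd7* and 0 of the 9 members were, and at an unadjusted p under 0.05 limma gave 1 member higher, *Cfi*, against 25.7% of genes. The gene lies on chromosome 3 from 129539657 to 129578246.

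*Cfb* was near 1 FPKM throughout, at 0.922 and 1.09 in *rd7* and 0.979 and 0.929 in wild-type. The genotypes overlapped, and the log2 difference of 0.06 (adjusted p = 0.893 from limma without a filter) was smaller than that between the *rd7* libraries, 0.22. *Cfb* (chromosome 17, 34993324 to 34999459) lies 87 bases from *C2*, the related protease of the classical pathway, with which it shared 0 windows of 50 bases. *C2* is under the filter, at 0.397 and 0.392 FPKM in *rd7* and 0.516 and 0.428 in wild-type.

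The most abundant member was *Cd59a*, which encodes the lipid-anchored inhibitor of the membrane attack complex. It had 11.4 FPKM in *rd7* replicate 1, 17.4 in replicate 2, and 17.2 and 16.8 in wild-type. Here it was replicate 1 that stood apart, at 0.669 times the wild-type mean, while replicate 2 was at 1.03 times. Its log2 fold change was -0.27 (standard error 0.19), which limma did not call (adjusted p = 0.284). Its neighbour and paralog *Cd59b*, 10.8 kb away on chromosome 2, contains 3.98% of the 50-base windows of *Cd59a*. In *Cd59b* replicate 1 was lowest as well, with 1.28 and 1.89 FPKM in *rd7* and 1.57 and 1.63 in wild-type (log2 fold change -0.03, adjusted p = 0.900 from limma). The 250 bases before *Cd59a* hold GAGGAA and the ISRE 1 time each.

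Of the 9 members, 6 passed the filter and were tested. At an FDR of 5%, 1 was higher, *C1qc*, and 0 were lower, while 37.6% of all genes tested were called higher and 8.80% lower. At an unadjusted p under 0.05, limma gave 2 members higher and 0 lower, against 43.6% and 11.1% of all genes tested. Both *rd7* values lay above both wild-type values in 3 of the 6 (*C1qa*, *C1qc*, *C4b*), against 57.1% of all genes tested. Of these, *C4b* passed the filter only through *rd7* replicate 2. Both *rd7* values lay below in 0 of the 6, against 19.5%. The shares of called members are thus at or below those of all genes. The median log2 fold change of the 6 was 0.38, and that of all genes 0.15.

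The order of the 2 *rd7* libraries was the same in all 9 genes, replicate 2 above replicate 1, compared with 47.6% of all genes tested. The 9 include 3 genes under the filter, which that share leaves out. As the members were chosen with earlier results of these data known, their common order is a description and not a test. The median log2 difference between the *rd7* libraries was 0.61 over the 6 members tested and -0.01 over all genes. Of the 9 other complement genes tested, described below, 5 were higher in replicate 2, with a median of 0.05. The order was also that of 10 of 11 microglia markers, 10 of 11 interferon response genes and all 10 reactive glia genes tested. It was that of 0 of 9 markers of blood vessels. When each *rd7* library alone was set against the 2 wild-type libraries, the single library was assumed to vary as the wild-type libraries did. The *rd7* libraries differed more, with 82 genes over 2-fold apart against 50 in wild-type. Calls from these fits therefore cannot separate genotype from the spread between *rd7* pools. By limma, 41.0% of genes were higher and 12.7% lower in replicate 2, and 43.3% higher and 11.6% lower in replicate 1. In replicate 2, 5 of the 6 members were called higher and 0 lower by limma. *C4b* had a log2 difference of 2.37 and *Serping1* of 1.21, and *C1qa*, *C1qb* and *C1qc* were between 0.42 and 0.66, while *Cd59a* was at 0.04. *C4b* passed the filter only through replicate 2, the library compared here. The median log2 difference of replicate 2 from wild-type was 0.55 over the 6 members. It was 0.69 over the 11 microglia markers and 1.41 over the 10 reactive glia genes, so the members did not stand out from these lists. In replicate 1, 1 member was called higher, *C1qc* (0.28), and 1 lower, *Cd59a* (-0.58). *C4b* was at 0.21 there and *Serping1* at -0.09, and neither was called.

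**Figure D2:**
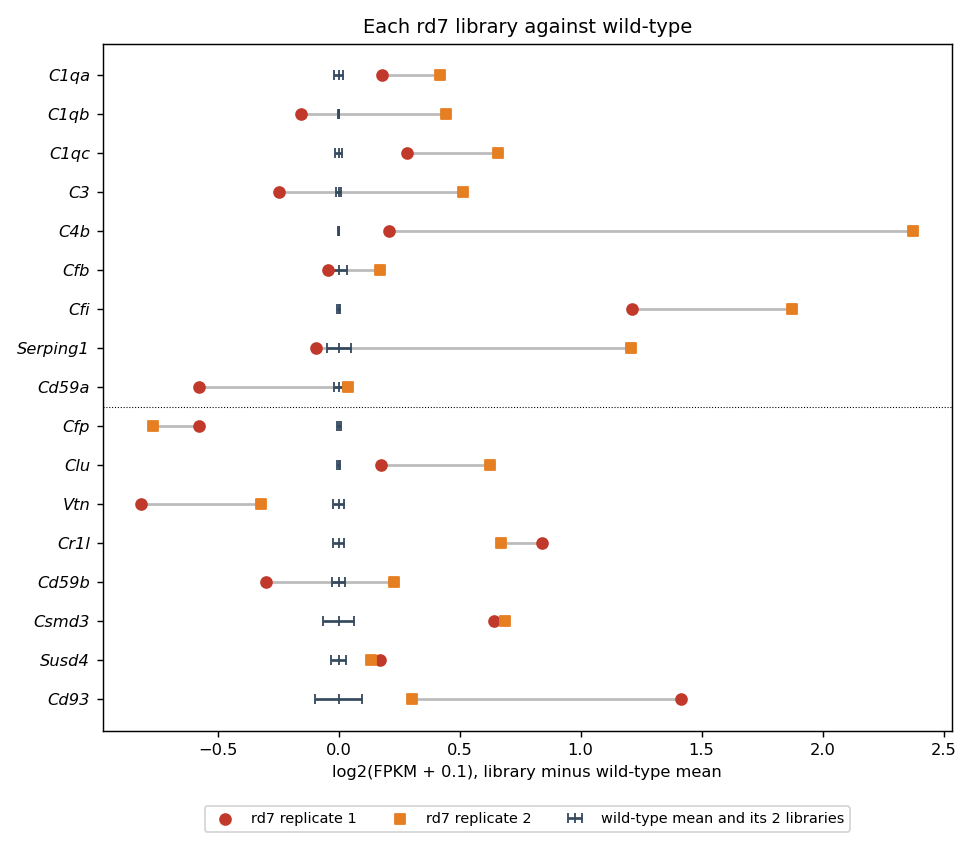
Difference from the wild-type mean in log2(FPKM + 0.1) (horizontal axis) for *rd7* replicate 1 (circles) and replicate 2 (squares) in the 9 members, above the dotted line, and 8 of the 9 other complement genes tested, below it (vertical axis). Bars at 0 span the 2 wild-type libraries, and the longest line between replicates is that of *C4b*, from 0.21 to 2.37.

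For the rest of the pathway, a list of 50 other complement genes was used, of which 47 were listed and 9 passed the filter. At an FDR of 5%, 3 of the 9 were higher and 2 lower in *rd7*, where the shares of all genes tested were 37.6% and 8.80%, and the median log2 fold change was 0.40 against 0.15 over all genes. Transcripts of the enzymes that start the cascade and of the pore that ends it were scarce. Of these other genes, all 15 grouped as classical and lectin recognition and proteases were under the filter, with no library above 0.912 FPKM. That group includes *C4a* and leaves out the C1q genes, which are members and passed the filter. The 6 genes listed of the terminal pathway were under it as well, at 0.590 or less. Of the 38 genes under the filter, 20 stayed below 0.1 FPKM in every library and 4 were listed at 0 in all of them.

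Most of the 9 genes tested encode regulators of the cascade. *Cr1l* encodes Crry, the rodent membrane inhibitor of C3 cleavage, and rose from 2.76 and 2.85 to 5.10 and 4.53 FPKM (log2 fold change 0.76, adjusted p = 0.00274 from limma). The log2 difference between the *rd7* libraries was -0.17 for *Cr1l*, against 2.17 for *C4b*.

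*Csmd3*, which encodes a large membrane protein with complement control domains, was at 1.40 and 1.44 FPKM in *rd7* and 0.818 and 0.904 in wild-type (log2 fold change 0.66, adjusted p = 0.0205 from limma). As its wild-type mean was under 1 FPKM, it entered the test only through the *rd7* libraries, where it was high. This call was lost with quantile normalization (0.49), with the GC and length correction (0.28) and without either wild-type library (0.60 and 0.73).

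*Cfp* encodes properdin, which stabilizes the alternative pathway convertase, and fell from 11.1 and 10.9 FPKM to 7.34 and 6.42 (log2 fold change -0.67, standard error 0.08, adjusted p = 0.00252 from limma). *Vtn*, the gene of vitronectin, which binds the terminal complex, was at 240.5 and 339 FPKM in *rd7* replicates 1 and 2 and 429.7 and 416 in wild-type (log2 fold change -0.57, adjusted p = 0.0287 from limma). All *rd7* values of both genes were below the wild-type values, *Cfp* lowest in replicate 2 and *Vtn* in replicate 1. The *Vtn* call was lost without a variance trend (adjusted p = 0.0568 from limma). Its log2 fold change was -0.54 without wild-type replicate 1 and -0.59 without wild-type replicate 2. Without a filter on low FPKM, *Csmd3*, *Cfp* and *Vtn* all missed the threshold, with adjusted p between 0.0502 and 0.228 from limma.

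*Clu*, the gene of clusterin, another inhibitor of the terminal complex, was at 289 and 394 FPKM in *rd7* and 256 and 254 in wild-type (log2 fold change 0.40, adjusted p = 0.0605 from limma). Like *C4b* it was highest in replicate 2. It was not called, but passed at a mean of at least 5 FPKM (adjusted p = 0.0453 from limma). The complement inhibitor gene *Susd4* (0.15, adjusted p = 0.0709 from limma) was not called either. *Cd93*, a receptor gene of endothelial and myeloid cells, was at 3.19 FPKM in *rd7* replicate 1, 1.42 in replicate 2, and 1.05 and 1.22 in wild-type (log2 fold change 0.86, adjusted p = 0.0967 from limma). Its high library was replicate 1, the opposite of the 9 members.

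Markers of microglia, the main source of C1q in the brain, were followed beside it. Of 20 markers of microglia, all were detected and 11 were tested, of which 5 were higher and 0 lower, near the 37.6% higher among all genes. Their median log2 fold change was 0.41, against 0.15 over all genes, and 2 of the 11, 1 of them called, had a wild-type mean under the filter. Among the most abundant, *Ctss* (0.72, adjusted p = 0.00278 from limma), which encodes a lysosomal protease, was called higher. *Tyrobp* (0.41, adjusted p = 0.138 from limma) and *Fcer1g* (-0.08, adjusted p = 0.794 from limma), which encode signalling adaptors, were not called. The summed FPKM of the 20 markers was 51.4 and 63.0 in *rd7* replicates 1 and 2 and 41.8 and 40.7 in wild-type. C1q summed to 31.3% and 34.2% of the microglial sum in *rd7* and to 36.2% and 36.6% in wild-type, a lower share in both *rd7* libraries. Of 7 markers of macrophages, only *Lyve1* passed the filter, and its FPKM of 5.66 and 5.69 in *rd7* against 4.24 and 4.23 in wild-type was called higher (0.41, adjusted p = 0.00600 from limma). Of those under the filter, *Mrc1* and *Ccr2* stayed at 0.034 FPKM or less. *Ms4a7* was at 0.556 and 0.292 FPKM in *rd7* replicates 1 and 2 and at 0.117 and 0.186 in wild-type.

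Reactive glia genes, a list linked to the response of Müller cells and astrocytes to injury, also had their highest sum in *rd7* replicate 2. Which cells made each of these transcripts was not tested. The 12 genes summed to 73.7 FPKM in *rd7* replicate 1 and 145 in replicate 2, against 51.5 and 53.6 in wild-type. All 10 genes tested were higher in replicate 2 than in replicate 1, with a median log2 difference of 1.03. *Gfap*, the filament gene of stressed Müller cells, was at 10.3 and 28.1 FPKM in *rd7* and 7.59 and 8.14 in wild-type (log2 fold change 1.10, adjusted p = 0.0831 from limma). *Stat3*, the transcription factor of this response, was at 18.6 and 32.8 FPKM in *rd7* and 13.0 and 13.3 in wild-type, and was called higher (0.90, adjusted p = 0.0293 from limma). The list was not uniform in replicate 1, where the median log2 difference of the 10 from wild-type was 0.44. *Lcn2* was at 1.67 and 2.79 FPKM in *rd7* and 2.36 and 2.56 in wild-type (log2 fold change -0.18, adjusted p = 0.562 from limma). *Edn2* was at 0.874 FPKM in replicate 1 against 1.18 and 1.34 in wild-type, but its log2 difference from wild-type was 2.74 in replicate 2. At an FDR of 5% by limma 5 of the 10 were higher and 0 lower, where 37.6% of all genes were higher, and the median log2 fold change was 1.00. Of those 5 genes, 3 (*A2m*, *Osmr*, *Socs3*) passed the filter only through their *rd7* values. The part of reactive glia in the values of *C4b* and *Serping1* was not tested.

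**Figure D3:**
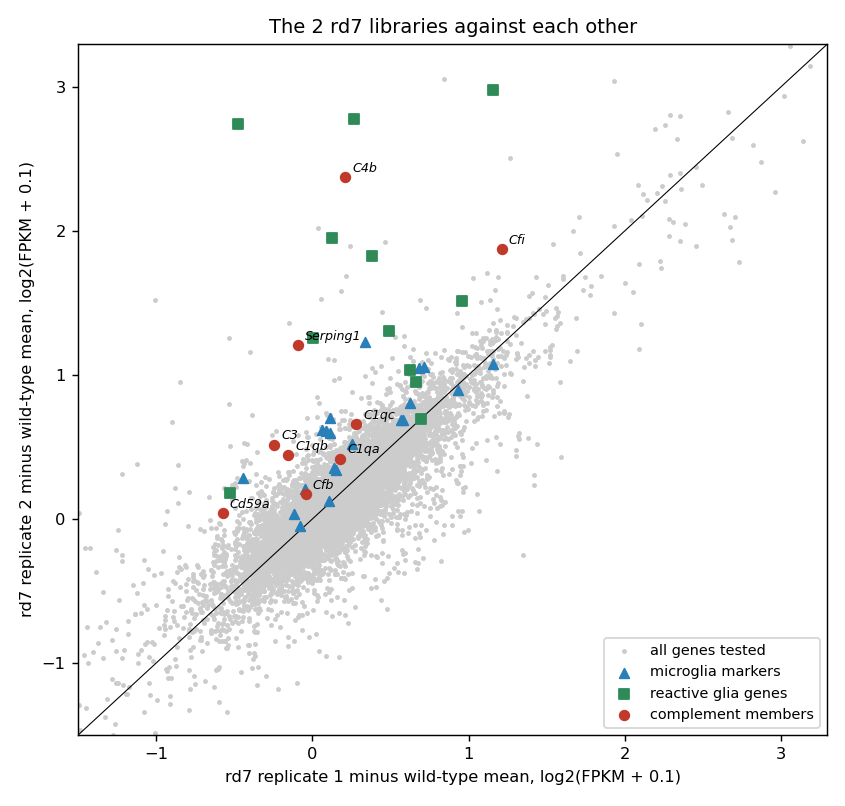
Difference from the wild-type mean in log2(FPKM + 0.1) of *rd7* replicate 1 (horizontal axis) and replicate 2 (vertical axis) for all genes tested (grey), with 87 genes beyond the axes, and for all listed genes of 3 lists, tested or not. On the line the 2 *rd7* libraries are equal, and all 9 complement members lie above it, *C4b* farthest, beside genes of reactive glia.

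Other markers did not share a common order. The 11 markers of Müller cells summed to 2245 and 2175 FPKM in *rd7* and 1975 and 2043 in wild-type, and their median log2 difference between the *rd7* libraries was 0.03. Those of blood vessels were highest in replicate 1, with 92.2 and 65.9 FPKM against 50.3 and 54.3 (10 markers), an order shared with *Cd93*. The 14 interferon response genes summed to 47.5 and 66.2 FPKM in *rd7* and 57.0 and 43.2 in wild-type. The wild-type libraries were thus themselves apart, and 1 of 11 tested genes was called. Of these 11, 10 were higher in *rd7* replicate 2 than in replicate 1. Their median log2 difference was 0.62, near the 0.61 of the members. In the pigment epithelium list, which marks tissue adherent to the retina, 8 genes summed to 60.0 and 54.8 FPKM in *rd7* and 34.1 and 21.2 in wild-type. The 3 blood genes listed once (*Hbb-b1*, *Hbb-b2*, *Alas2*) summed to 67.5 and 138 FPKM in *rd7* and 233 and 266 in wild-type, lower in both *rd7* libraries and lowest in replicate 1, although *Hbb-b2* was at 35.3 FPKM in wild-type replicate 1 and near 0 elsewhere. Of the 5 astrocyte markers (119 and 128 FPKM in *rd7* against 58.6 and 63.9), *Slc1a2* alone gave 104 and 114 FPKM against 47.3 and 51.4. Fibroblast markers (7 genes, 5.46 and 4.71 against 3.72 and 3.99) and lens markers (6 genes, 5.51 and 6.74 against 5.76 and 11.3) complete the lists. The part of any of these lists in the complement values was not tested.

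**Figure D4:**
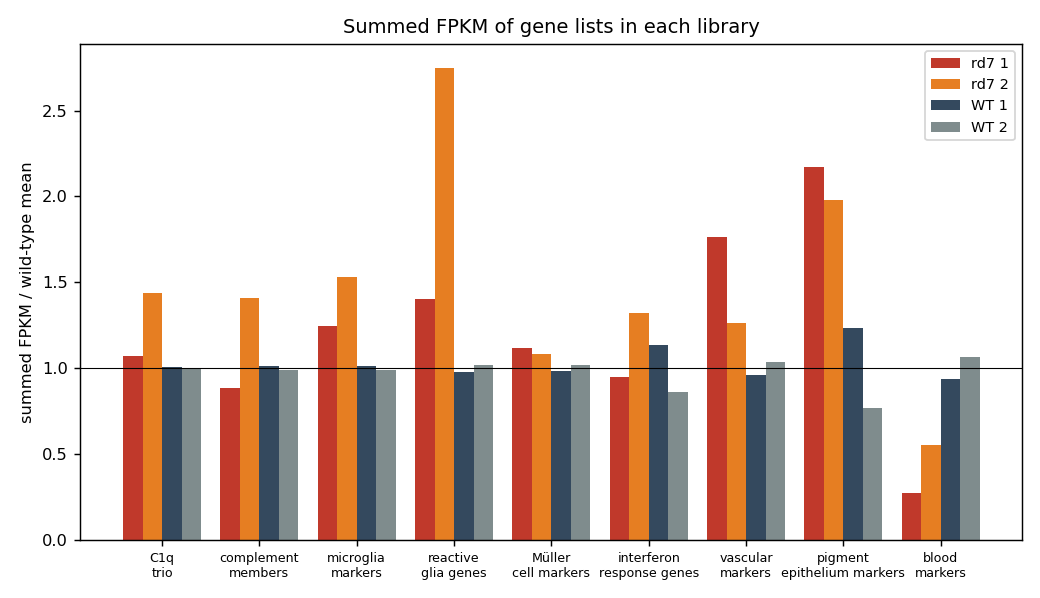
Summed FPKM of gene lists in each library divided by the mean of the 2 wild-type libraries (vertical axis, from 0; bars: *rd7* and wild-type, WT, replicates 1 and 2). Reactive glia genes reach 2.75 in *rd7* replicate 2 and 1.40 in replicate 1, and the C1q genes reach 1.44 and 1.07.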

How the data were processed

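RNA-seq was performed on 4 libraries of retinas, 2 of *rd7* and 2 of wild-type mice, as pools of animals. Single reads of 50 bases were mapped by the authors to mm9 with TopHat 1.4.1, and the deposited FPKM per gene and library came from Cufflinks 1.3.0. The kit as described does not mark strand. A second deposited table holds the authors' own Cuffdiff comparison (pooled FPKM, fold changes, p-values and q-values) and was not used.

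Genes whose status was successful in all libraries and whose FPKM averaged 1 or more were compared as log2(FPKM + 0.1) with limma 3.58.1 in R 4.3.3 (variance trend, two-sided, Benjamini-Hochberg over 12655 genes, FDR of 5%). Loci with another status (262) were left out. A fold change on this scale understates that of low genes. The step was tested on simulated data. The files hold no counts. From the smallest FPKM values among genes with a single annotated transcript over 800 bases, within a window of 0.02 to 0.036 FPKM times kb, 1 read was worth about 0.0281 to 0.0287, or 3.49e+07 to 3.56e+07 reads per library. The window was preset and bounds this result, and the depth is below an equal share of the mapped reads that the paper reports. Reads behind a value are rough estimates from this and cover counting error only.

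Members and lists were chosen with earlier results of these data known. Named are all members, the other complement genes past the filter, and up to 4 genes with the highest mean FPKM of a marker list. *C4a* and *C2* as paralogs, and *Mrc1*, *Ccr2*, *A2m*, *Osmr*, *Socs3*, *Lcn2* and *Edn2*, fall outside this rule and were chosen after values were seen. Gene positions are those of mm9 (GENCODE), and promoters those of RefSeq on GRCm38.p6. Alternatives were other pseudocounts, filters, scalings and an FDR of 1%, a GC and length correction, a replicate block and each library left out. With 2 libraries a group, differences between the *rd7* libraries carry no test. A few genes that this rule would name are not reported here, but count in the totals.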

Additional observations from a re-analysis of the deposited data

How the results depend on the processing

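The number of members called higher in *rd7*, 1 of 6, was 0 with median-ratio scaling, quantile normalization, no variance trend, no filter on low FPKM or an FDR of 1%, and 2 with a correction for GC content and length, which also called *C1qa* (0.43). Leaving out 1 library left a group with 1 library, so only effect sizes are given here. For *Cd59a* the log2 fold change was 0.04 without *rd7* replicate 1 and -0.58 without *rd7* replicate 2. For *C4b* the log2 fold change was 2.37 without *rd7* replicate 1 and 0.21 without *rd7* replicate 2, and for *Serping1* 1.21 and -0.09. With both *rd7* libraries, neither was called under any of the 8 full refits that included it. Of the other complement genes, 3 were called higher. With adjustment for GC content and length, this number was 1, *Cr1l* (0.54, adjusted p = 0.0124 from limma). At a mean of at least 5 FPKM, where fewer genes were tested and *Cr1l* and *Csmd3* were not, it was also 1. That gene was *Clu*, which the main fit did not call. Those called lower, 2, were 1 with an FDR of 1% or no variance trend and 0 without a filter. The cause was not tested. Replicate numbers did not pair libraries (r = -0.0265 between the deviations of those numbered 1), and with a replicate block 1 member was higher and *C4b* (1.29, adjusted p = 0.0808 from limma) was not called, while *Clu* was (0.40, adjusted p = 0.0351 from limma).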
